A study of Homo sapiens with 14 samples.

Results

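The exons described here are cassette exons whose length is not a multiple of 3, so that including or skipping one of them inside a coding sequence shifts the reading frame. They were taken from the splice table of HEK293T cells, a transformed line from human embryonic kidney. A cassette exon entered when it was longer than 30 nt, left a remainder on division by 3, and had at least 10 junction reads on average over the mean of the WT and the mean of the MT libraries. Each exon, a pair of exon ends on one strand, was represented by the listing with the most reads, since an exon is listed again for every other pair of neighbouring exons. In this way 30835 exons were found among 114349 splice events of every type, 80999 of them cassette exon events. A level in all 6 libraries was available for 30818 of these exons, from 9130 genes, and these are used from here on. Their lengths left a remainder of 1 in 15495 and of 2 in 15323.

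RNA-Seq compared 3 libraries of SF3B1-WT cells (genotype K700K) with 3 libraries of SF3B1-MT cells (genotype K700E), both untreated as far as the labels say. The table lists 6 MT values for each event, and the 3 MT levels with a column of their own were assumed to be the 3 labelled MT libraries, so the MT library numbers are those of the columns. The MT line was newly made for the study to carry the change at the endogenous locus of SF3B1, and is isogenic with the WT line. The sources used here give neither the number of clones behind each line nor separate cultures behind each library, so p-values measure only the spread between these libraries. The series also holds DNA:RNA hybrid sequencing of another cell line, not used here.

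In a cassette exon, the splicing machinery either joins the exon to both neighbours or joins the neighbours directly. SF3B1 is the subunit of the U2 snRNP that holds the branch point upstream of the 3' splice site, and the K700E substitution, recurrent in leukemia, is known for the use of cryptic 3' splice sites. A shift of the reading frame usually meets a stop codon soon afterward, and an mRNA whose stop codon lies well upstream of its last exon junction is a substrate of nonsense-mediated decay, which removes the transcript. The level of such a form in total RNA is therefore what remains after decay.

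The measure is the inclusion level of a listing, as deposited for each library. It sets reads that include the exon against reads that join its listed neighbours directly, from 0 (only skipping) to 1 (only inclusion). It is not the share of all transcripts of the gene, since the same exon can differ in level between listings. Shown here are sequences of the called exons and of the 3 exons with the largest difference in each direction among those with at least 50 reads and non-overlapping libraries, where they lie in or between coding exons, because they display how each change alters the reading frame. Bases are from the GRCh38 genome, read 5' to 3' on the transcribed strand, with the exon in capitals and 30 intron bases before it and 6 after it in lower case.

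BRD9, exon of 160 nt (chr5:869239-869434, minus strand): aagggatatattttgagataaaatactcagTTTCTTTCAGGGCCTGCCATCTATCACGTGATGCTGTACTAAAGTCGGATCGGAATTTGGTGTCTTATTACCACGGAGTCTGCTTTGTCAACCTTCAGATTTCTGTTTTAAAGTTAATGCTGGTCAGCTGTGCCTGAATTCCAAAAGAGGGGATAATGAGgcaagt
GORASP1, exon of 131 nt (chr3:39100741-39100907, minus strand): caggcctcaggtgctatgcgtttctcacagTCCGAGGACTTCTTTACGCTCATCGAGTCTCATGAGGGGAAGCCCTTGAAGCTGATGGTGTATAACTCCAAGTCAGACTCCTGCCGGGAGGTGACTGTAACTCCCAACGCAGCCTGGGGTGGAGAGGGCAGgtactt
SUV39H2, exon of 146 nt (chr10:14881470-14881651, plus strand): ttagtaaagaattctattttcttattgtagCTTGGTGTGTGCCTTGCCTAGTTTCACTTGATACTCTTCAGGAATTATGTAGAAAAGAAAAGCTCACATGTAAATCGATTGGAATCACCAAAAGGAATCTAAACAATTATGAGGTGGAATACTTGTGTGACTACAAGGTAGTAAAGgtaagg
MDM4, exon of 68 nt (chr1:204537400-204537503, plus strand): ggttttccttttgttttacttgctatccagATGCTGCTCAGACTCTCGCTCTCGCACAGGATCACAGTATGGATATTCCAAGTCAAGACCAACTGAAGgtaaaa
URI1, exon of 35 nt (chr19:29971163-29971233, plus strand): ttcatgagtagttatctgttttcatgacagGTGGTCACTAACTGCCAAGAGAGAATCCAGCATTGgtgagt
OSBPL8, exon of 37 nt (chr12:76459853-76459925, minus strand): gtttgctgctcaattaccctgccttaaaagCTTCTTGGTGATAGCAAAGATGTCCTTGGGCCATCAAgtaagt

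For the same exons, the next lines show the form that departs from the reference transcript. They run from 12 bases before the altered junction to the form's first stop codon in frame, which is in capitals. For BRD9 the form shown is the one with the exon, and for the other genes the one without it.

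BRD9, exon included: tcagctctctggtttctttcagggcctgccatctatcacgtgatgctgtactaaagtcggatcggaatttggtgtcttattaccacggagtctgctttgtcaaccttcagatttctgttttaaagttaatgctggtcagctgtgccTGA
GORASP1, exon skipped: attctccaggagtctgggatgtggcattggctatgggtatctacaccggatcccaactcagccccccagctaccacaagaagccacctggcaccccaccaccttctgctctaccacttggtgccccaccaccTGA
SUV39H2, exon skipped: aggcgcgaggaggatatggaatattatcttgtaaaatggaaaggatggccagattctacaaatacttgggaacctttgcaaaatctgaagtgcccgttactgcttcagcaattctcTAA
MDM4, exon skipped: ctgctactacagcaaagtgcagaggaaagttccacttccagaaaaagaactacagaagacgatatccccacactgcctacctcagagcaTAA
URI1, exon skipped: gagcaggaaaaggaagaaggtagaTAA
OSBPL8, exon skipped: gatcgaacttcgctgttgTAG

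These forms met their first stop codon between 6 bases (OSBPL8, TAG) and 134 bases (BRD9, TGA) after the altered junction in these 6 genes. In BRD9 this stop codon lies inside the included exon, ahead of any frame shift from the exon's length. In all 6 genes the new stop codon lies more than 50 bases upstream of the last exon junction. That distance is used here to call a stop premature. The distances run from 191 bases (BRD9) to 2449 bases (OSBPL8). Frames and residue counts, here and below, were read from the start codon of the reference transcript alone, and no protein was measured.

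Most frame-shifting exons had a level near 1 in WT cells, with little skipping between their listed neighbours. The mean WT level was above 0.95 in 22831 exons (74.1%), at most 0.05 in 3179 exons (10.3%), and between these limits in 4808 exons (15.6%). The median level was 0.993 in WT and 0.990 in MT cells, and the median difference, MT minus WT, was 0, as it was among all events. Of 19698 frame-preserving cassette exons chosen by the same limits, 18.6% had an intermediate WT level, against the 15.6% of frame-shifting exons. This comparison of shares is a description with no test, since exons of 1 gene share reads.

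The libraries differed among themselves in how many exons stood at a level of exactly 1. This held for 57.7, 55.8 and 58.6% of frame-shifting exons in WT libraries 1, 2 and 3, and for 57.9, 52.3 and 47.6% in MT libraries 1, 2 and 3. MT libraries 2 and 3 thus lay below every WT library, while MT library 1 lay within the WT range. Among frame-preserving exons the MT shares were 55.8, 49.5 and 46.9%, in the same order. Reads entered only as the group means of the deposited table, because its lists of reads per library hold 6 MT values that were not matched to samples. The part of library depth in these shares was not tested. Over the exons, the median of these means was 89.0 reads in WT and 89.8 in MT, where the means cover all 6 listed values. Junctions of VIM and KRT18, intermediate filament genes taken as markers of the line, were covered by up to 3882 and 117 reads, those of KRT8 by up to 36 and those of PAX2 by at most 3.17. No event was listed for PAX8 or LIN28B, and none of the B cell genes CD79A, CD79B, MS4A1, PTPRC and PAX5 had an event with more than 1.25 reads.

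The K700E substitution itself cannot be read from inclusion levels. The test for a difference between WT and MT cells was limma on arcsine-transformed levels over all 83627 events of every type with reads and variable levels, with Benjamini-Hochberg adjustment. An exon was called when its adjusted p was under 0.05 and its mean levels differed by more than 0.1. Of 26438 frame-shifting exons that could be tested, 3 were called, with 1 rise and 2 falls in MT cells. This is 0.0113%, against 0.0311% of all events (0.0179% for falls and 0.0132% for rises) and 3 called frame-preserving exons (0.0177%). An unadjusted p under 0.05 was found for 1175 frame-shifting exons, 4.44% of those tested, next to 4.47% of all events. With the logit scale, untransformed levels or no variance trend, limma called 0 frame-shifting exons, with 850, 774 and 851 at an unadjusted p under 0.05, and without any 1 of the 6 libraries it called 0 or 1 (DCAF16, without WT library 2). The remaining 4380 exons had the same level in all 6 libraries.

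**Figure D1:**
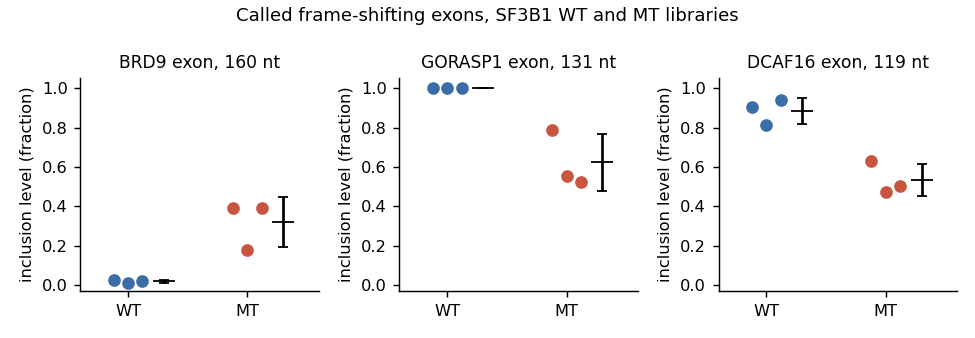
Inclusion level (fraction, vertical axis) of the 3 called frame-shifting exons in each WT (blue) and MT (red) library, with the mean and SD of each group in black, n = 3. The WT and MT libraries of each exon do not overlap, and BRD9 is the exon with a higher level in MT.

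The rise was in BRD9, a bromodomain subunit of the noncanonical BAF chromatin remodelling complex. The exon of 160 nt (chr5:869245-869404, minus strand) lies between coding exons, is absent from the reference transcript and is found in 3 annotated transcripts, all of the nonsense-mediated decay class. Its levels were 0.026, 0.012 and 0.019 (WT) against 0.393, 0.176 and 0.392 (MT). All MT libraries were well above the WT libraries, and MT library 2 was the lowest of them. The mean went from 0.019 ± 0.007 to 0.320 ± 0.125 (SD, n = 3 each), up by 0.301 (limma adjusted p = 0.0220), on a mean of 63.5 reads. The included form encodes 553 residues before its stop codon in place of 597 in the reference form.

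A second BRD9 exon with the same downstream end is shorter by 10 bases at its 5' end. Its 150 nt are a multiple of 3, so this neighbour counts as frame-preserving by length alone. Read in the reference frame, the bases printed above give the form with this shorter exon a stop codon (TAA) inside it too. The exon of 150 nt stood at 0.026, 0.018 and 0.028 across WT libraries, next to 0.227, 0.109 and 0.256 across MT libraries. The difference of 0.173 was not called (limma adjusted p = 0.466). The libraries of both BRD9 exons had the same order of groups. Both share their downstream junction, so their reads are not independent.

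The larger fall was in GORASP1, which encodes the Golgi stacking protein GRASP65. This coding exon of 131 nt (chr3:39100747-39100877, minus strand) is found in 24 annotated transcripts. Its level was 1 in all 3 WT libraries and 0.789, 0.556 and 0.524 in the MT libraries. No skipping was thus counted in WT cells, while all MT libraries held skipped transcripts. The MT mean was 0.623 ± 0.145, a fall by 0.377 (limma adjusted p = 0.0411), resting on a mean of 22.75 reads. Skipping leads to 185 residues in place of 440, with the stop codon 120 bases after the new junction.

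The other fall was in DCAF16, a substrate receptor of the CUL4-DDB1 ubiquitin ligase. The exon of 119 nt (chr4:17805107-17805225, minus strand) lies in the 5' untranslated region, where a length that is not a multiple of 3 moves no reading frame of the annotated protein. The levels were 0.903, 0.812 and 0.94 (WT) against 0.628, 0.472 and 0.502 (MT), on a mean of 214.4 reads. The lowest WT library was above the highest MT library. The mean fell by 0.351, from 0.885 ± 0.0659 to 0.534 ± 0.0828 (limma adjusted p = 0.000422). The same exon between other neighbours, on 105.3 reads, had mean levels of 0.948 in WT and 0.95 in MT cells (limma adjusted p = 0.860). The difference between the 2 listings was not tested.

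1 more frame-shifting exon passed both limits only in a listing with fewer reads, and was chosen for mention after its values were seen. This exon of 70 nt (chr7:128577964-128578033, plus strand) belongs to the noncoding gene RP11-274B21.1. With 15.5 reads, its levels were 0, 0.087 and 0 across WT libraries, next to 0.935, 0.65 and 0.402 across MT libraries (limma adjusted p = 0.0414). With 45.33 reads and other neighbours, the levels were 0.926, 0.829 and 1 (WT) against 0.878, 0.821 and 0.954 (MT) (limma adjusted p = 0.856). The groups did not overlap in the first listing and overlapped in the second.

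Because so few exons passed the test, exons were also described by whether their libraries overlapped. In 260 frame-shifting exons of 239 genes, every MT library lay on the same side of every WT library and the means differed by more than 0.1. The exact permutation test of 3 against 3 libraries cannot give a p below 0.1, so this is a description. The level was lower in MT in 162 exons (0.526%) and higher in 98 (0.318%). Without WT library 3 the majority turned, with 209 lower and 273 higher. Together they are 0.844% of frame-shifting exons, against 1.54% of all events (0.869% lower and 0.667% higher) and 1.06% of frame-preserving exons (0.614% lower and 0.447% higher). The share among frame-shifting exons was thus below that over all events. Among exons with an intermediate WT level the share was 3.95% for frame-shifting exons, 4.59% for frame-preserving exons and 3.95% for all events. When overlapping exons were counted once, 218 exons remained, of 28652.

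**Figure D2:**
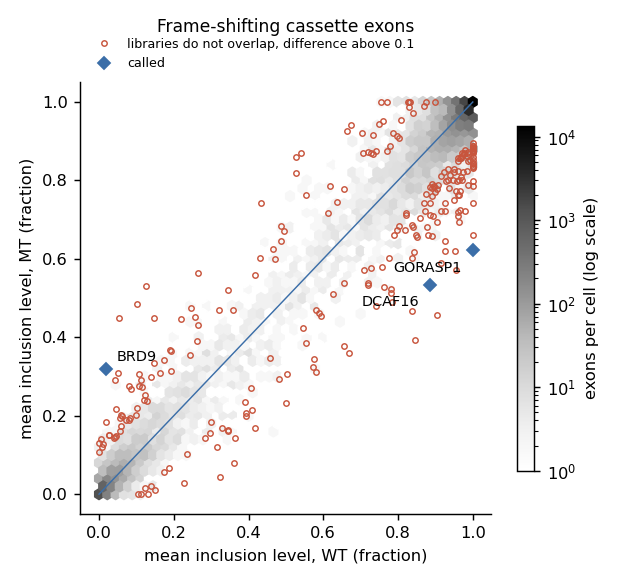
Mean inclusion level of 30818 frame-shifting exons in WT (horizontal axis, fraction) and MT cells (vertical axis, fraction), with the number of exons in each cell in grey on a log scale. Open red circles are the 260 exons whose libraries do not overlap and differ by more than 0.1, blue diamonds are the 3 called exons, and most exons lie on the line of equal levels at its upper end.

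Of the exons with non-overlapping libraries and a difference above 0.1, 56 had a WT level above 0.95, which can only go lower by that much, and 14 had a WT level of at most 0.05, which can only go higher. Between 0.2 and 0.8, where both directions are possible, 47 were lower and 43 higher, of 1345 exons. In the same range, 36 frame-preserving exons were lower and 41 higher, of 1217.

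**Figure D3:**
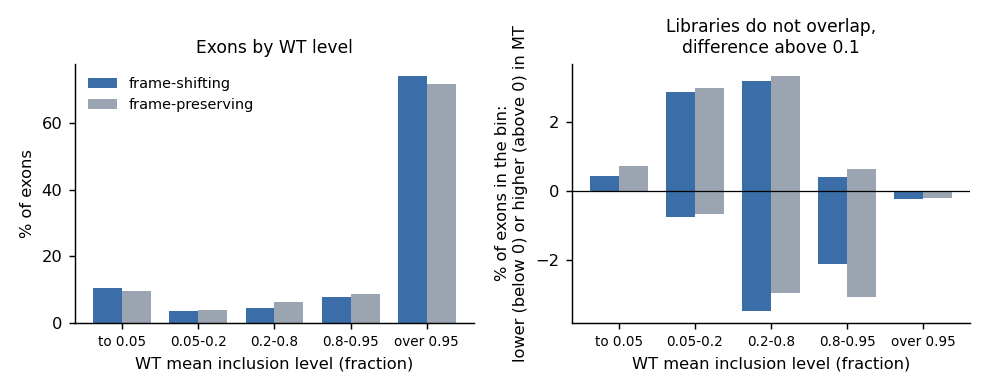
Left, share of exons (%) by mean WT inclusion level (fraction) for frame-shifting (blue) and frame-preserving (grey) exons. Right, for the same bins, the share of exons (%) with non-overlapping libraries and a difference above 0.1, higher in MT above the zero line and lower in MT below it, where frame-shifting exons with a WT level from 0.2 to 0.8 reached 6.69% in both directions together.

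Of the 260 exons, 117 of those lower and 75 of those higher in MT had fewer than 50 reads. The median was 29.7 reads for lower and 26.8 for higher exons, against 89.5 for all frame-shifting exons. Low reads thus went with large differences. The differences reached -0.453 and 0.406, both in exons under 50 reads. The median upstream intron was 3085 bases for lower and 3789 bases for higher exons, compared with 2218 bases for all, and the median downstream intron 2456 and 4755 bases, compared with 2036. Their direct skipping junction was annotated in 74.7% of lower and 90.8% of higher exons. It was annotated in 37.9% of all frame-shifting exons and 78.5% of those with an intermediate WT level, so the exons with a difference resembled the latter.

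With at least 50 reads, 45 exons were lower in MT and 23 higher, of 21616. The exons with the largest difference in each direction among these are described next, 11 lower and 12 higher. Apart from DCAF16 and BRD9, none passed the limma test, so their levels are given as values.

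**Figure D4:**
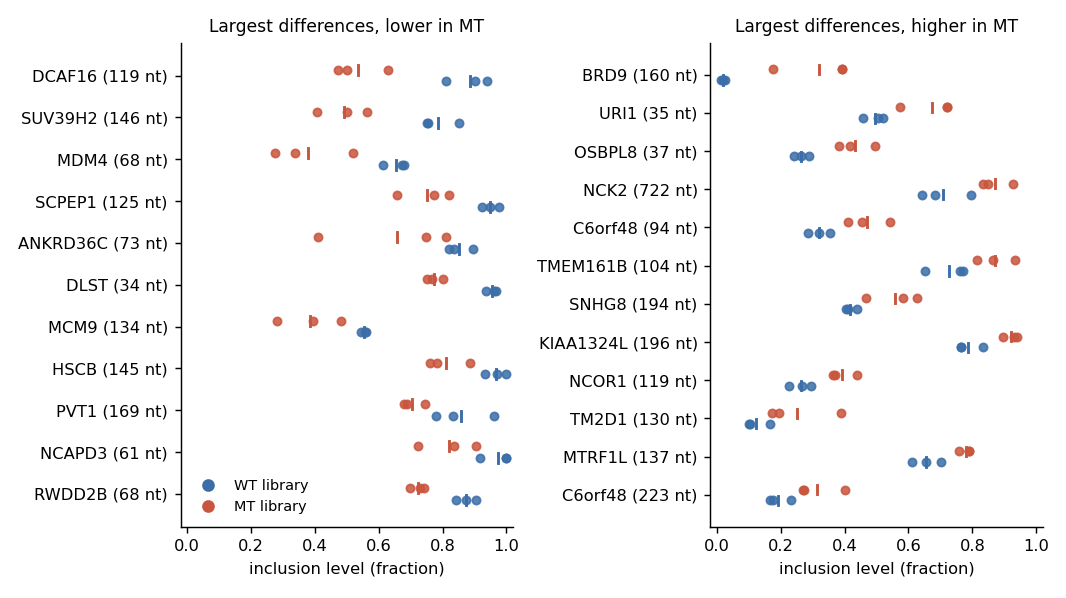
Inclusion level (fraction, horizontal axis) in each WT (blue) and MT (red) library for 11 lower and 12 higher frame-shifting exons, those with the largest differences among exons with at least 50 reads and non-overlapping libraries, with vertical ticks at the group means, n = 3. SUV39H2 and DCAF16 show wide gaps between groups, whereas MDM4, ANKRD36C and TM2D1 have 1 MT library far from the others.

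SUV39H2, a histone H3 lysine 9 methyltransferase, had levels of 0.85, 0.75 and 0.753 across WT libraries, next to 0.408, 0.5 and 0.565 across MT libraries for its coding exon of 146 nt, a difference of -0.293 (limma adjusted p = 0.343). Skipping gives a reading frame of 45 residues in place of 410. Between other neighbours, on 48.08 reads, the same exon had means of 0.909 and 0.921. As in DCAF16, the groups were apart with 1 pair of neighbours and overlapped with the other.

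MDM4, an inhibitor of p53, had levels of 0.614, 0.678 and 0.673 (WT) against 0.519, 0.277 and 0.337 (MT) for its exon of 68 nt, the exon whose loss gives the known short form of the protein. Means of 0.655 ± 0.0356 and 0.378 ± 0.126 gave a difference of -0.277 (limma adjusted p = 0.160). MT library 1 was nearest to the WT libraries. An overlapping exon of 39 nt with the same downstream end, a multiple of 3, had means of 0.505 and 0.254. Skipping of the 68 nt leads to 140 residues in place of 490.

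NCAPD3, a condensin II subunit, had levels of 1, 0.918 and 1 across WT libraries, next to 0.835, 0.722 and 0.904 across MT libraries for an exon of 61 nt. Skipping replaces the end of the protein, with 1473 residues in place of 1498, and puts the stop codon in the last exon. MCM9, a helicase of homologous recombination, had levels from 0.546 to 0.560 in WT and of 0.481, 0.283 and 0.395 in MT libraries for an exon of 134 nt in its 5' untranslated region. The WT libraries of MCM9 were close together and the MT libraries spread more widely (SDs of 0.0072 and 0.0993). CHEK1, the checkpoint kinase downstream of ATR, had levels of 0.843, 0.86 and 0.808 (WT) against 0.591, 0.723 and 0.746 (MT) for an exon of 130 nt (limma adjusted p = 0.856). The CHEK1 exon is annotated in 1 transcript, of the nonsense-mediated decay class.

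DLST and HSCB encode mitochondrial proteins. DLST, a subunit of the oxoglutarate dehydrogenase complex, had levels of 0.966, 0.935 and 0.962 across WT libraries, next to 0.8, 0.767 and 0.751 across MT libraries for its coding exon of 34 nt. These groups were far apart for their spread, with means of 0.954 ± 0.0169 and 0.773 ± 0.025, and the exon came closest to a call among the uncalled frame-shifting exons named here (limma adjusted p = 0.0726). Between other neighbours the DLST groups overlapped, with means of 0.825 (WT) and 0.704 (MT) on 30.25 reads, and of 1 and 0.929 on 22.42 reads. Skipping gives a reading frame of 110 residues in place of 453. HSCB, a co-chaperone of iron-sulfur cluster assembly, had levels of 1, 0.971 and 0.932 (WT) against 0.761, 0.782 and 0.885 (MT). In this listing the HSCB groups did not overlap, but between other neighbours the same exon had means of 0.989 and 1, and of 0.964 and 0.890, with groups that overlapped.

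SCPEP1, a serine carboxypeptidase, had levels of 0.977, 0.948 and 0.922 (WT) against 0.657, 0.821 and 0.773 (MT) for an exon of 125 nt (limma adjusted p = 0.121). This SCPEP1 exon is annotated in 1 transcript, of the nonsense-mediated decay class. The frame-preserving exon of 114 nt that overlaps it, on 195 reads, had means of 0.971 and 0.837. Here too both forms had lower levels in MT. RWDD2B had levels from 0.841 to 0.905 in WT and from 0.698 to 0.743 in MT libraries for a coding exon of 68 nt, the noncoding RNA PVT1 from 0.778 to 0.962 and from 0.679 to 0.745, and ANKRD36C from 0.820 to 0.896 and from 0.411 to 0.811. Between other neighbours, on 36.58 reads, the PVT1 exon had means of 0.944 and 1. Reads of ANKRD36C are uncertain, because near-identical copies of this ankyrin repeat gene exist.

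After BRD9, the 2 exons with the largest difference toward a higher level in MT were short. URI1, a prefoldin-like protein, had levels of 0.458, 0.521 and 0.505 across WT libraries, next to 0.575, 0.72 and 0.722 across MT libraries for its coding exon of 35 nt, a difference of 0.178 (limma adjusted p = 0.743). OSBPL8, a lipid transfer protein of the endoplasmic reticulum, had levels of 0.264, 0.241 and 0.29 (WT) against 0.418, 0.495 and 0.383 (MT) for its exon of 37 nt, a difference of 0.167 (limma adjusted p = 0.856). In both listings skipping was less frequent in MT than in WT. Read from the reference start codon, the skipped form ends at 43 residues in place of 535 in URI1 and 16 in place of 889 in OSBPL8. Skipping was the more frequent OSBPL8 form in both groups (mean inclusion levels of 0.265 in WT and 0.432 in MT), and other start codons were not considered. With other neighbours the OSBPL8 exon had means of 0.184 and 0.369, and the URI1 exon 0.926 and 0.904. The OSBPL8 means thus were higher in MT with either pair of neighbours, and those of URI1 with 1 pair.

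NCK2, an adaptor of tyrosine kinase signalling, had levels of 0.797, 0.642 and 0.683 across WT libraries, next to 0.927, 0.849 and 0.834 across MT libraries for a coding exon of 722 nt. NCOR1, a corepressor of nuclear receptors, had levels of 0.226, 0.267 and 0.294 (WT) against 0.371, 0.365 and 0.439 (MT) for an exon of 119 nt in its 5' untranslated region. MTRF1L, a mitochondrial release factor, had levels of 0.612, 0.703 and 0.654 across WT libraries, next to 0.789, 0.759 and 0.789 across MT libraries. These 3 exons had MT libraries close together, with SDs from 0.0173 to 0.0499. Between other neighbours, on 19.42 reads, the NCOR1 exon had means of 0.961 and 0.947.

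SNHG8 and C6orf48 are snoRNA host genes, which carry small nucleolar RNAs in their introns. In SNHG8 the exon of 194 nt had levels from 0.404 to 0.438 in WT and from 0.468 to 0.628 in MT libraries, on 278.2 reads. In C6orf48, now named SNHG32, an exon of 94 nt had levels from 0.285 to 0.356 in WT and from 0.412 to 0.543 in MT libraries, on 400.8 reads. The overlapping C6orf48 exon of 223 nt had means of 0.193 and 0.315 and shares a splice site with it. An exon of 47 nt in SNHG1, a further snoRNA host gene named after its values were seen, had lower levels in MT, from 0.885 to 0.912 in WT libraries against 0.75 to 0.812 in MT libraries (limma adjusted p = 0.415). The level of SNHG8 computed from the mean junction reads of each group differed by 0.0368 in place of 0.142. Those MT read means cover all 6 listed values and the MT levels only 3, so the MT sets are not the same. The other 3 exons, whose differences shrank over 1.5 times in the mean over all their listings (0.0373, 0.0675 and 0.05), were those of TMEM161B (means of 0.728 and 0.870), KIAA1324L (0.787 and 0.922) and TM2D1 (0.124 and 0.252, with MT library 3 at 0.388 and the others at 0.174 and 0.194).

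The annotation placed 21531 of the frame-shifting exons wholly within coding sequence, while 3685 lay between coding exons of a reference transcript that lacks them. A further 1814 were in 5' untranslated regions and 1799 in noncoding transcripts only. Non-overlapping libraries with a difference above 0.1 were found in 0.478% of coding exons, 1.33% of those absent from the reference form, 2.54% of exons in 5' untranslated regions and 2.28% of those in noncoding transcripts. The median WT level was 0.998 in coding exons and 0.246 in exons of 5' untranslated regions, so these groups also differed in the room for change. Among frame-preserving exons the shares were 0.754% in coding sequence, 1.80% outside the reference form, 3.44% in 5' untranslated regions and 1.68% in noncoding transcripts.

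For 21641 frame-shifting exons, the form that departs from the reference transcript had a premature stop codon. Skipping gave such a stop for 18353 of the exons that the reference contains (85.2%), and inclusion did for 3288 of those that it lacks (89.2%). Among frame-preserving exons, 99.3% kept the stop codon on skipping, but inclusion of an exon absent from the reference gave a premature stop for 1128 exons (50.7%). Length alone thus did not decide the outcome for exons outside the reference form.

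Of the 122 frame-shifting exons with a premature stop in the other form, non-overlapping libraries and a difference above 0.1, 95 had more of the form with the premature stop in MT and 27 had less. The 95 were 67 exons with more skipping and 28 with more inclusion. As a comparison, movement away from the reference form, whatever its stop codon, was seen in 114 of 152 frame-shifting exons (75.0%) and 108 of 151 frame-preserving exons (71.5%). Most reference forms stood near a level of 1 or 0, which leaves room mainly in that direction. Of all 260 frame-shifting exons with such a difference, however, 190 had an intermediate WT level. The part of this room in the direction of these exons was not tested. Over all 21641 exons, without the limit on size, 10902 differed toward the form with the premature stop, 7264 away from it and 3475 not at all, with a median difference of 0.000333. The shares at a level of 1 given above, lowest in MT libraries 2 and 3, go in the same direction, and their part in these counts was not tested.

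**Figure D5:**
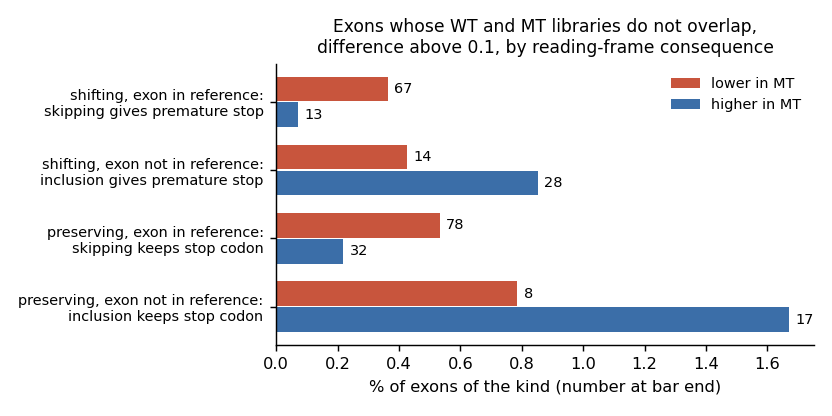
Share of exons (%, horizontal axis) with non-overlapping libraries and a difference above 0.1, lower (red) or higher (blue) in MT, by frame class and by what the form that departs from the reference does to the stop codon, with the number of exons at each bar. In either frame class, lower levels outnumbered higher ones for exons in the reference (67 against 13 and 78 against 32), and the reverse held for exons that the reference lacks.

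Lists of genes related to the splicing machinery, RNA decay and the study's topics held 757 frame-shifting exons, of which 628 were tested and 0 were called by limma, with 29 at an unadjusted p under 0.05 (4.62%). Their median difference was 0, as over all events. Libraries did not overlap, with a difference above 0.1, in 2 exons, those of MDM4 and CHEK1 given above, both in the DNA damage response list of 128 exons. This is 0.264% of the listed exons, against 0.844% of all frame-shifting exons and 1.54% of all events.

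The lists of SR proteins (20 exons), hnRNPs (88), U2 and 3' splice site factors (67), splicing kinases and RNA-binding regulators (88), nonsense-mediated decay factors (79), R-loop factors (138) and centromere, kinetochore and spindle proteins (149) had no such exon. Their largest differences were between libraries that overlapped, or small. SKIV2L, a helicase of the cytoplasmic RNA exosome, had levels of 0.988, 0.915 and 0.906 (WT) against 0.931, 0.791 and 0.636 (MT) for an exon of 191 nt. HNRNPA2B1 had levels of 0.727, 0.813 and 0.764 across WT libraries, next to 0.37, 0.676 and 0.901 across MT libraries, a wide MT spread (SD 0.267). SNRPA1, which encodes the U2 snRNP protein A', had levels from 0.955 to 0.985 in WT and from 0.924 to 0.95 in MT libraries for an exon of 80 nt on 586.1 reads, a difference of -0.0383 with no overlap.

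SGO1, the protector of centromeric cohesion, stood at 1 in all WT libraries and at 0.875, 1 and 0.714 in MT libraries on 14.83 reads. CLK4, a kinase of SR proteins, had means of 0.280 and 0.382, and TRA2A, a splicing activator, of 0.150 and 0.195. The libraries of each of these 3 exons overlapped between the groups.

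The 5 exons with the most reads lay at or next to the upper bound of the level, where changes cannot be seen to more than 3 decimals. The exons of 235 and 239 nt in EEF1A1, of 106 nt in EEF2 and of 413 nt in RPS2, genes of translation, had a level of 1 in all 6 libraries. The RPS2 exon of 160 nt, on 31790 reads, had a level of 0.999 in 5 libraries and 1 in MT library 3. The EEF1A1 exons overlap each other, as do the RPS2 exons, so a level of 1 does not mean inclusion in every transcript. At the read limit, the exons just inside had 10 reads (LHX2, PITPNM2 and MINDY4, with differences from -0.073 to 0), and those just outside 9.92 reads (PIF1, LINC00969 and CYP4F26P, from -0.109 to 0.005). At the length limit, the exons of 31 nt with the most reads (PPIA, PTBP1 and CALM2) had differences from -0.007 to 0, and those of 29 nt, just too short, (SF3B3, SNHG1 and GTF2I) from -0.0023 to 0.002.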

How the data were processed

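RNA-Seq libraries of HEK293T cells (3 WT and 3 MT) were used. Methods state a stranded library kit, reads of 101 bp and the rMATS model. The submitters' processing notes name STAR and StringTie and the GRCh38 build. The deposited inclusion level of each library is a fraction, given by the authors to 3 decimals, of inclusion reads per length of form over both forms. Mean junction reads and form lengths were also deposited for each group. The MT means cover 6 listed values per event, and only 3 of these belong to libraries with a column of their own, so reads served for the limit of 10 and as variance trend, and library totals are not known here. P-values and differences computed by the authors were deposited too and not used.

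Levels were arcsine square root transformed and fitted with limma 3.58.1 in R 4.3.3, with the log of mean reads as trend, over all event types with at least 10 reads and levels that vary, without covariates. The script was tested on simulated data. Exons were annotated with GENCODE 44, taking the highest-ranked coding transcript that contains the exon, or its neighbours, as reference, and a stop more than 50 bases before the last junction was called premature. Python 3.11.15, pandas 2.3.3 and pysam 0.24.0 were used.

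The text names all called exons, the 12 largest differences in each direction with at least 50 reads and non-overlapping libraries, such exons of the gene lists, those nearest the limits and the 5 with the most reads. A few of these and of the list and marker genes are not reported here. The largest difference of each list was added after values were seen, as was the overlap of exons counted once. The members and lists were chosen with earlier results of these data known. Alternatives were other transforms, read limits, variance trends, event sets and levels, and leaving out each library.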

Additional observations from a re-analysis of the deposited data

How the results depend on the processing

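Leaving out any 1 library gave from 0 to 1 called frame-shifting exons in place of 3. DCAF16 remained without WT library 2, and no exon did without any of the other libraries, where 856 to 1483 exons had an unadjusted limma p under 0.05. The logit scale, untransformed levels and a fit without variance trend gave 0 calls each, with 850, 774 and 851 exons at an unadjusted limma p under 0.05. Keeping events of constant level gave 10 calls, none of them among the 3, and fitting cassette exons alone gave 8, all 3 among them. The limma adjusted p was compared over the fits that kept all 6 libraries, those with other read limits among them. It ranged from 2.07e-09 to 0.636 for DCAF16, from 0.000612 to 0.856 for BRD9 and from 0.00511 to 0.841 for GORASP1. The cause was not tested. Counting each listing of an exon gave 4 calls, a limit of 50 reads gave 2, no read limit gave 2 and no limit on the difference gave 3.

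The 260 exons with non-overlapping libraries and a difference above 0.1 became 68 with at least 50 reads, 60 with a difference above 0.2 and 421 when each listing was counted. Leaving out any 1 library gave from 482 to 608, since groups of fewer libraries overlap less often. Without WT library 3, 209 exons were lower and 273 higher in MT, the reverse of the 162 and 98 with all libraries. With any other library left out, lower levels stayed in the majority.

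For 31 named exons, 254 alternative differences were computed, and none changed sign. Where groups do not overlap, leaving out a library or taking medians cannot change the sign. For such exons only the mean over listings and the level from mean junction reads could have done so. Of the 254 differences, 226 kept their side of the threshold or stayed within the spread between replicates. Another 17, of the called exons, lost the call without 1 library, and 11 moved by more than that spread. The mean over all listings of the exon gave a difference of -0.175 for DCAF16, -0.141 for SUV39H2, -0.0738 for HSCB, -0.049 for PVT1, 0.0778 for URI1, 0.0675 for KIAA1324L, 0.0577 for NCOR1, 0.05 for TM2D1 and 0.0373 for TMEM161B, each over 1.5 times smaller than in the listing with the most reads. For DLST it gave -0.125 in place of -0.182, which also moved by more than the spread.

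No paired analysis was possible because the MT columns carry no replicate number that ties them to the WT libraries. A count test on junction reads was not run, since reads are used here only as group means. Precision is limited by 3 libraries in each group and, for exons with 10 to 50 reads, by counting.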

Other observations

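A window from 10 to 30 bases upstream of the exon was read on the transcribed strand for 30814 frame-shifting exons, because cryptic 3' splice sites of K700E cells are known from this distance. It held the letters AG, not overlapping the exon's own splice site, in 40.7% of all frame-shifting exons and 39.1% of frame-preserving exons. Among exons with non-overlapping libraries and a difference above 0.1, the share was 37.0% of the 162 lower in MT and 46.9% of the 98 higher in MT. Adenine made up 19.1% of the window in all frame-shifting exons and in those lower in MT, and 19.6% in those higher in MT. These shares are descriptions with no test, and a match of letters is not a splice site.

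In the 260 exons, the MT library farthest from the WT mean was library 1 in 94, library 2 in 82 and library 3 in 84. The WT library nearest to the MT mean was library 1 in 97, library 2 in 96 and library 3 in 67.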
